A study of Mus musculus with 16 samples.

Results

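The cadherin, gap junction and tight junction genes of hepatocytes were followed through livers from 4 groups of mice. These are 10 genes of the 55471 with a count: Cdh1, Cdh2, Ctnnb1, Gjb1, Gjb2, Cldn1, Cldn2, Cldn3, Ocln and Tjp1. They were listed by name with earlier results of these data known, and the difference of Cdh1 between aged control and young livers led to the choice, so they count as chosen by the CPM of that contrast. All 10 passed the filter on low counts that left 17046 genes to test. The study concerns antibiotic exposure early in life. Total RNA of snap-frozen liver portions was sequenced, with 4 samples in each group. PAM I and PAM II were antibiotic groups of mice aged 102 weeks, the aged controls were mice of 102 weeks without antibiotics, and the young mice were 12 weeks old without antibiotics. The labels give no drug, dose, strain, sex, litter or cage, and do not say what PAM stands for.

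Cells of an epithelium are held together by several junctions. In adherens junctions, cadherins of neighbouring cells bind each other outside the cell and hold catenins inside it. Tight junctions, built from claudins and occludin on a scaffold of zonula occludens proteins, seal the bile canaliculus from the blood side. Gap junctions, built from connexins, let small molecules pass between neighbours. Hepatocytes carry both E-cadherin and N-cadherin, and in mouse liver E-cadherin is known to be held mainly by periportal hepatocytes and by bile duct cells.

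A set of 4 promoter windows is shown, picked with the results below known. Gjb2 and Cldn2 varied together among aged livers, 1 of 7 such pairs described below. Cldn1 and Ocln had their lowest group means in PAM I livers, as did Cdh1, Cdh2, Ctnnb1 and Tjp1. Neither Cldn1 nor Ocln passed the test of PAM I against aged controls (edgeR adjusted p = 0.506 for each). Each window holds the 250 bases before a RefSeq gene start in GRCm38.p6, 5′ to 3′ on the gene's strand. Capitals mark CACCTG or its reverse complement CAGGTG, the E-box letters known to be bound by Snail and Zeb repressors. The windows lie at chr14:57104703-57104952, minus strand for Gjb2, chrX:139800558-139800807, plus strand for Cldn2, chr16:26371840-26372089, minus strand for Cldn1, and chr13:100552719-100552968, minus strand for the upstream start of Ocln.
Gjb2: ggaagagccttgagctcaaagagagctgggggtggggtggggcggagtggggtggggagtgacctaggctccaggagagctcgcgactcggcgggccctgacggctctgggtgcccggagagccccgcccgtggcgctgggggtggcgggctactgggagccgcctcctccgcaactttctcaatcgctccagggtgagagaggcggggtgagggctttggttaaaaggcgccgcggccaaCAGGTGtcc
Cldn2: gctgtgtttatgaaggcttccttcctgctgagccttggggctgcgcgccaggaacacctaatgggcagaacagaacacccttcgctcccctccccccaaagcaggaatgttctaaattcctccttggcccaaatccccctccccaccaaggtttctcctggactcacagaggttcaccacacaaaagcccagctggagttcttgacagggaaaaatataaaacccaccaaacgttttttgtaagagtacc
Cldn1: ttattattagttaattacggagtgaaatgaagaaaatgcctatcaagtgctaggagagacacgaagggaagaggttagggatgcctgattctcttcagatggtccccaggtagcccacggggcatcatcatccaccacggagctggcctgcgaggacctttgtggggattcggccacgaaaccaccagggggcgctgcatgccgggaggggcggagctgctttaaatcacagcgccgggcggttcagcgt
Ocln: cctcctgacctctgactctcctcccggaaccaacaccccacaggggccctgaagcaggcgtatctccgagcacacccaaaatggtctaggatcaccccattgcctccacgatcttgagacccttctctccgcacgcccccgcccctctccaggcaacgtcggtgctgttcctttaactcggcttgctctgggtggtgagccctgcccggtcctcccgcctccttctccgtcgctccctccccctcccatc
Of these windows, that of Gjb2 holds the motif, starting 9 bases before the gene start. Windows of 8 members were used, 13 in all. Of these 13, 3 from 3 members held the motif on either strand, namely Gjb2, Gjb1 in 1 of its 4 windows and Ocln. The match of Ocln lies in a second window, at chr13:100552499-100552748, minus strand, which holds the motif 2 times and is not printed. The same letters stood in 17.22% of all 32851 RefSeq windows of this length. A match describes letters and not a bound site. No entry was used for Cdh1 or Cdh2.

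Each library had between 36968993 and 52090914 fragments assigned to genes. Levels are counts per library total, scaled as CPM with TMM factors, which adjust library size for composition. Differences are log2 fold changes of edgeR's quasi-likelihood fit with their standard error (SE), and calls needed an adjusted p under 0.05 (Benjamini-Hochberg over all genes tested). Nothing in the labels says that samples of a group came from separate animals, so p-values measure the spread between these samples, which may be technical. Hepatocyte markers were abundant in every library, their sum lying between 73828 and 131945 CPM. In whole tissue, fewer cells of a type and less RNA per cell cannot be told apart.

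Per kilobase of exon, the members spanned a wide range of levels. Gjb1, the connexin 32 gene, led with a mean of 367 CPM per kilobase over 16 libraries. Cldn3 followed with 118 and Gjb2, the connexin 26 gene, with 105 CPM per kilobase, and the ranges of these last members over single libraries overlapped. Ctnnb1 had 30.3, Cldn2 28.1, Cldn1 16.3 and Cdh2 10.1 CPM per kilobase. Tjp1 had 4.61 and Ocln 3.79 CPM per kilobase, and their ranges overlapped. The place of Cdh1 depended on the group. Its mean was 1.64 in PAM I, 2.42 in PAM II and 2.23 in aged control livers, below every other member, and 19.2 CPM per kilobase in young livers, above Cdh2, Tjp1 and Ocln. Cdh1 differed 32-fold between its highest and lowest library, whereas the other 9 members differed between 1.66-fold and 2.82-fold.

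**Figure D1:**
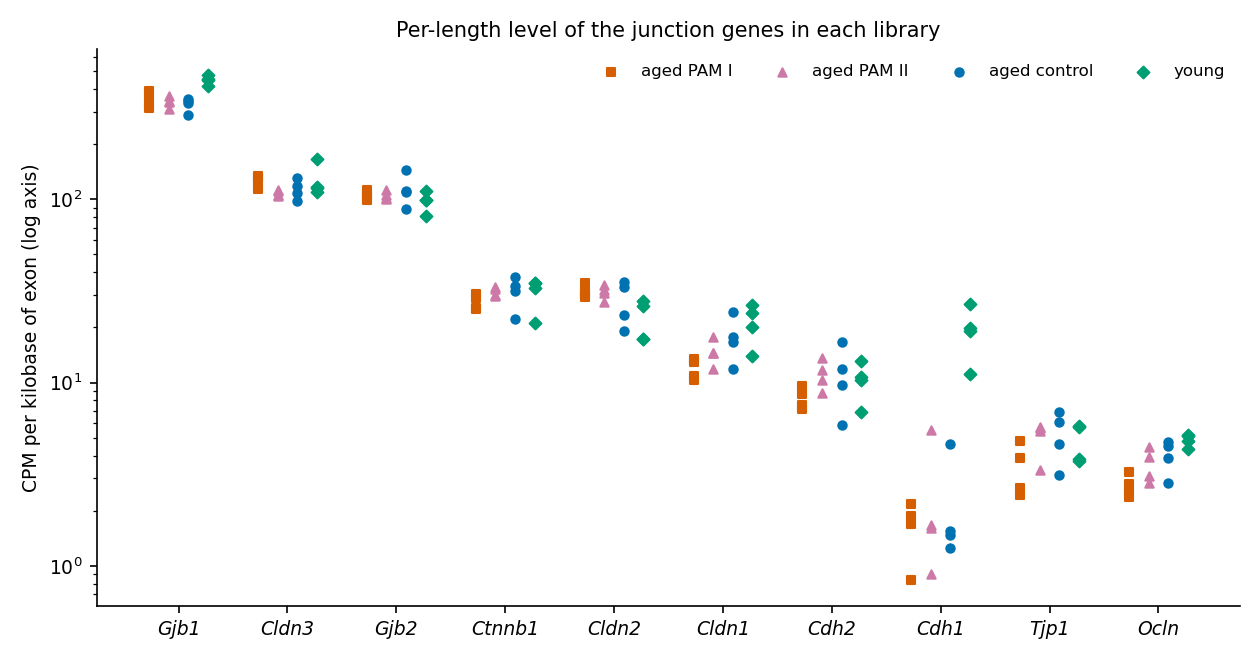
Level of each junction gene in CPM per kilobase of exon (log axis), 1 point per library, with colours for the 4 groups and genes in order of their mean over all libraries. Gjb1 stood highest, and Cdh1 was the member whose young libraries lay far above its aged ones.

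Cdh1 encodes E-cadherin, the classical cadherin of epithelia, and lies at chr8:106603351-106670246, plus strand (GRCm38). It had 7.74, 9.90, 3.82 and 8.52 CPM in the PAM I livers, 25.1, 7.62, 7.39 and 4.13 in the PAM II livers, 5.75, 6.77, 21.2 and 7.10 in the aged control livers, against 51.2, 91.3, 122 and 87.5 in the young livers. All 12 aged livers, with or without antibiotics, lay below all 4 young livers, the highest aged library having 25.1 CPM and the lowest young one 51.2 CPM. These values rested on 1411 fragments in all in PAM I, 2280 in PAM II, 1869 in aged control and 13622 in young livers.

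Because the aged control and young values led to the choice of genes, they are given without a test. The log2 fold change of Cdh1 in aged control over young livers was -3.11 ± 0.55 (SE). The PAM I livers gave -3.55 ± 0.56 and the PAM II livers -2.98 ± 0.55 against the same young livers, so these 3 values share their young samples. Leaving out any 1 of the 8 libraries kept the aged control value between -3.75 and -2.91.

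Cdh2 encodes N-cadherin, the other cadherin of hepatocytes, and lies at chr18:16588877-16809246, minus strand. It had 76.9, 69.9, 58.0 and 60.5 CPM in the PAM I livers, 71.2, 83.7, 94.0 and 110 in the PAM II livers, 78.0, 95.2, 134 and 47.6 in the aged control livers, against 55.7, 105, 83.4 and 86.1 in the young livers. Here all 4 groups overlapped, and the aged control group alone held both the highest and the lowest aged library. The aged control minus young value was 0.10 ± 0.25 (log2, SE). Per kilobase of exon, Cdh2 was between 4.0 and 8.63 times the level of Cdh1 in PAM I livers, between 1.60 and 15.1 times in PAM II livers and between 3.59 and 7.98 times in aged controls. In young livers the ratio was between 0.387 and 0.655, so Cdh1 was the more abundant cadherin transcript per length in all 4 young livers and the less abundant one in all 12 aged livers.

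**Figure D2:**
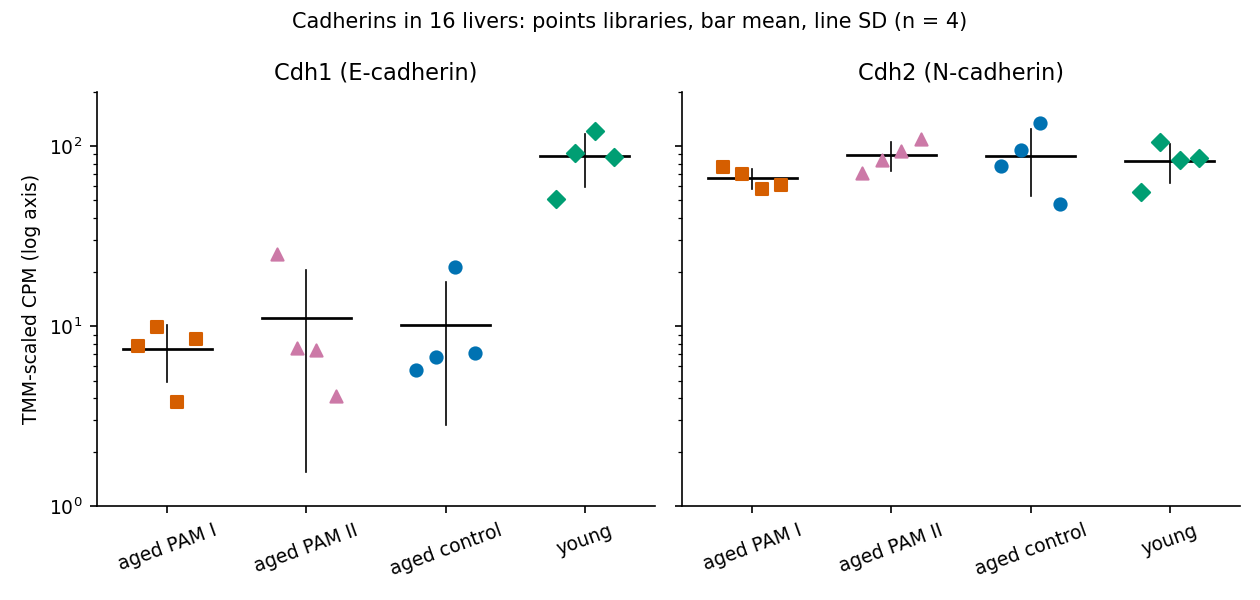
TMM-scaled CPM (log axis) of Cdh1 and Cdh2 in each library of the 4 groups, with the group mean as a bar and the SD as a line (n = 4). Cdh1 points of the 12 aged livers lay at or below 25.1 CPM and those of young livers at or above 51.2 CPM, whereas Cdh2 overlapped in all groups.

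Cdh1 is shared by bile duct cells, so markers of those cells are given beside it. The summed level of 14 cholangiocyte markers was 71.1 to 177 CPM in PAM I, 82.2 to 252 CPM in PAM II and 96.6 to 185 CPM in aged control livers, against 68.8 to 90.3 CPM in young livers. At most 1 of the 14 was at 0 in a library, and of the defining markers Krt19 had between 0.797 and 4.49 CPM. Between aged control and young livers 0 of the 13 measured ones were called in edgeR's test, beside 3.23% of all genes, and 12 of 13 had a positive log2 fold change.

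Markers of periportal hepatocytes, 20 genes, summed to 10351 to 15422 CPM in aged control and 13906 to 16969 CPM in young livers. Again 0 of 20 were called, beside the same 3.23% of all genes, with 13 negative values and a median log2 fold change of -0.35, beside -0.01 over all genes. Genes known for higher levels in male mouse liver moved strongly in the same contrast, 8 of 10 being called lower in aged controls and 6 of 10 measured female-biased genes being called higher, beside the same 3.23%. The male-biased sum was 1114 to 2128 CPM in aged control and 4817 to 7481 CPM in young livers, and the female-biased sum 115 to 209 CPM in aged control and 1.53 to 2.85 CPM in young livers. Of other cell types, endothelial markers had 11 of 12 negative values with 2 called lower (197.5 to 336 CPM summed in aged control and 363 to 399 CPM in young livers). Kupffer cell markers were positive in 11 of 11 (241 to 846 CPM in aged control and 263 to 372 CPM in young livers) and lymphocyte markers in 12 of 12 (7.82 to 54.1 CPM in aged control and 7.89 to 12.8 CPM in young livers), with 0 called. Skeletal muscle markers were negative in 14 of 14 (1.03 to 15.9 CPM in aged control and 1.10 to 139 CPM in young livers), with 0 called. The part of these lists in the Cdh1 difference was not tested. Alternative fits with the muscle or Kupffer markers as a covariate gave -3.53 and -3.11 for Cdh1. Both lists also leaned to 1 side between the same groups, so such fits cannot separate them from the group.

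The aged livers highest in Cdh1 were PAM II replicate 1 with 25.1 CPM and aged control replicate 3 with 21.2 CPM. The cholangiocyte list was highest of all libraries in PAM II replicate 1, at 252 CPM, and the Kupffer cell list also, at 1794 CPM. In aged control replicate 3 the same lists had 136 and 241 CPM, in that order of lists, and its Kupffer sum was the lowest of all libraries. The relation of these sums to Cdh1 was not tested.

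Ctnnb1 encodes β-catenin, which links cadherins to the cytoskeleton through α-catenin and also carries Wnt signals. It had 158, 150, 130 and 132 CPM in the PAM I livers, 154, 156, 168 and 172 in the PAM II livers, 164, 174, 195 and 115 in the aged control livers, against 110, 181, 182 and 171 in the young livers. All groups overlapped, and the aged control minus young value was 0.01 ± 0.17 (log2, SE). A microRNA gene, Mir7090, lies on the same strand within Ctnnb1.

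Both main connexin genes of the liver were measured. Gjb1, the main connexin of hepatocytes, had 537, 563, 665 and 613 CPM in the PAM I livers, 528, 577, 589 and 620 in the PAM II livers, 601, 573, 588 and 492 in the aged control livers, against 766, 711, 771 and 817 in the young livers. All 12 aged livers lay below all 4 young livers, the nearest being 665 and 711 CPM. The log2 difference was -0.37 ± 0.10 for PAM I, -0.41 ± 0.10 for PAM II and -0.44 ± 0.11 for aged controls, each against the same young livers.

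Gjb2, which encodes connexin 26 and is known as a periportal connexin, had 247, 239, 268 and 252 CPM in the PAM I livers, 241, 244, 252 and 271 in the PAM II livers, 264, 267, 348 and 212 in the aged control livers, against 194, 267, 239 and 239 in the young livers. Its groups overlapped, and the highest and the lowest aged values again both came from aged controls, replicates 3 and 4. The aged control minus young value was 0.21 ± 0.13 (log2, SE), positive where that of Gjb1 was negative.

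Among the claudins, Cldn1, a sealing claudin, had 62.9, 65.0, 52.3 and 50.3 CPM in the PAM I livers, 57.3, 70.4, 86.1 and 70.6 in the PAM II livers, 80.3, 85.6, 117 and 57.1 in the aged control livers, against 68.0, 116, 129 and 97.7 in the young livers. All 4 PAM I livers lay below all 4 young livers, the highest PAM I value being 65.0 CPM and the lowest young value 68.0 CPM. The difference from young livers was -0.83 ± 0.21 in PAM I, -0.53 ± 0.21 in PAM II and -0.27 ± 0.21 in aged controls (log2, SE).

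Cldn2 forms channels for small cations and water. It had 99.9, 96.8, 116 and 104 CPM in the PAM I livers, 102, 91.9, 106 and 113 in the PAM II livers, 77.3, 111, 117 and 63.2 in the aged control livers, against 57.7, 93.0, 57.7 and 87.2 in the young livers. All 4 PAM I livers lay above all 4 young livers, with 96.8 CPM as the lowest and 93.0 CPM as the highest value, whereas aged controls overlapped with every group. Its difference from young livers was 0.50 ± 0.19 in PAM I, 0.48 ± 0.19 in PAM II and 0.32 ± 0.19 in aged controls (log2, SE).

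Cldn3, the claudin with the highest level per length here, had 156, 142, 169 and 167 CPM in the PAM I livers, 132, 140, 141 and 132 in the PAM II livers, 136, 123, 148 and 164 in the aged control livers, against 207, 138, 145 and 147 in the young livers. The PAM II livers were all below the PAM I livers, while young replicate 1 stood above the rest. The aged control minus young value was -0.16 ± 0.13 (log2, SE).

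Ocln encodes occludin, a membrane protein of the tight junction strand. It had 13.8, 11.8, 9.97 and 10.8 CPM in the PAM I livers, 11.9, 16.5, 18.8 and 13.1 in the PAM II livers, 20.1, 16.4, 19.0 and 12.0 in the aged control livers, against 20.2, 21.8, 21.5 and 18.3 in the young livers. PAM I livers lay wholly below young livers, the nearest values being 13.8 and 18.3 CPM. The difference from young livers was -0.82 ± 0.17 in PAM I, -0.44 ± 0.17 in PAM II and -0.28 ± 0.17 in aged controls (log2, SE).

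Tjp1 encodes ZO-1, the scaffold that ties claudins and occludin to actin. It had 37.6, 30.2, 20.8 and 19.1 CPM in the PAM I livers, 25.9, 44.0, 42.5 and 44.7 in the PAM II livers, 36.2, 47.7, 53.9 and 24.5 in the aged control livers, against 29.3, 44.9, 45.6 and 29.8 in the young livers. All groups overlapped, and the lowest libraries were PAM I replicates 3 and 4. Predicted genes Gm44794 and Gm44792 overlap Tjp1 on its strand, so fragments in the shared stretches may be uncounted. The aged control minus young value was 0.12 ± 0.27 (log2, SE).

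Counting members whose aged and young libraries did not overlap gave 5 of 10 for PAM I (4 lower, and Cldn2 higher), 2 of 10 for PAM II and 2 of 10 for aged controls. Over all 17046 genes the share without overlap was 16.9% for PAM I, 14.3% for PAM II and 9.27% for aged controls. The members that did not overlap in all 3 comparisons were Cdh1 and Gjb1, and nothing is read from these counts because the comparisons share the young livers that led to the choice.

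**Figure D3:**
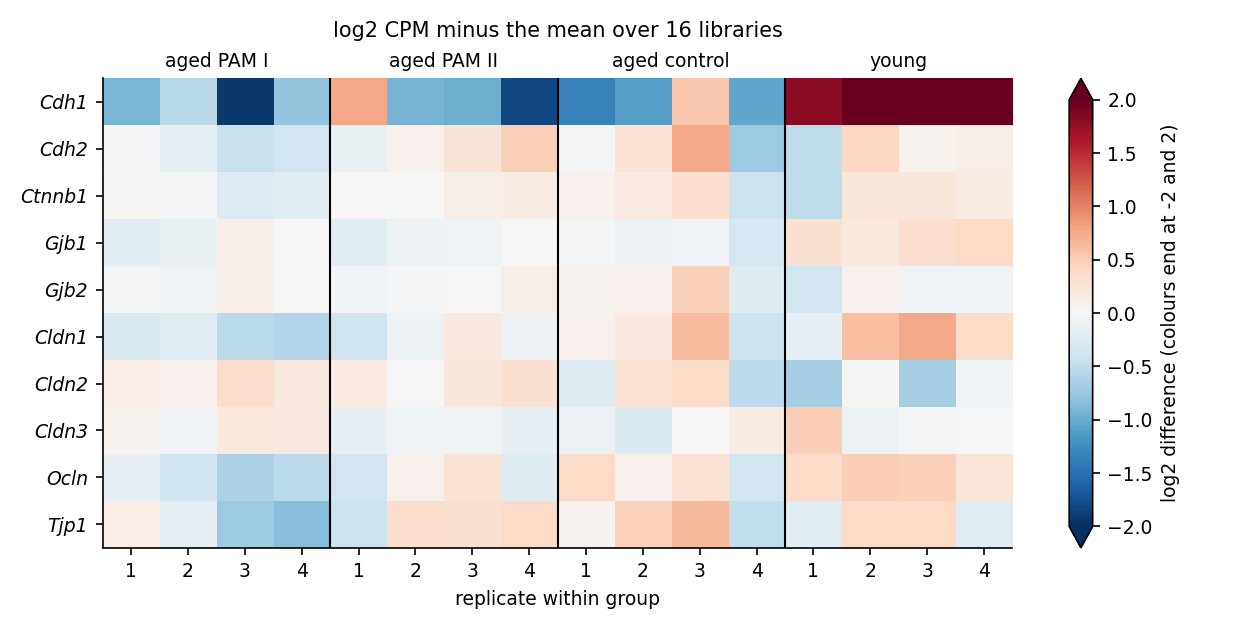
Colours give log2 CPM of each gene minus its mean over 16 libraries, by group and replicate, with the scale ending at -2 and 2. The young columns stand out for Cdh1, and columns such as aged control replicates 3 and 4 move several members at once.

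The antibiotic groups were then compared with aged controls, which also took part in the contrast that led to the choice. PAM I livers had 7.49 ± 2.61 CPM of Cdh1 and aged controls 10.2 ± 7.37 CPM (SD, n = 4 each). The log2 fold change was -0.45 ± 0.52, with a 95% interval of -1.55 to 0.66 and an edgeR adjusted p of 0.819. Without aged control replicate 3 it was 0.18, the opposite sign. The interval spans falls and rises of Cdh1, and a difference was not detectable with these samples.

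The largest values in that comparison were those of Tjp1, Cldn1 and Ocln, 3 of the 5 tight junction members, the other claudins Cldn2 (0.18) and Cldn3 (0.15) having the opposite sign. Ocln averaged 11.6 ± 1.65 CPM in PAM I livers and 16.9 ± 3.62 CPM in aged controls, a log2 fold change of -0.54 ± 0.17 (interval -0.90 to -0.18). Its unadjusted p was 0.00567 and its edgeR adjusted p 0.506. Cldn1 gave -0.56 ± 0.21 (unadjusted p = 0.0182, edgeR adjusted p = 0.506). Tjp1 gave -0.59 ± 0.27 (unadjusted p = 0.0436, edgeR adjusted p = 0.521). None passed, and the PAM I and aged control libraries of each overlapped. Long transcripts were also lower relative to short ones in all 4 PAM I libraries than in 3 of the 4 aged controls. Of the other 7 members, values ran from -0.45 for Cdh1 to 0.18 for Cldn2.

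In all, 0 of 10 members were called between PAM I and aged controls by edgeR, limma voom or DESeq2, where edgeR called 0% of all genes and DESeq2 called 16 genes. Unadjusted p-values under 0.05 were seen for 3 of 10 members, beside 9.4% of all genes. None of the 10 was without overlap, beside 5.47% of all genes.

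Between PAM II livers and aged controls the values were small beside their errors. Cdh1 averaged 11.1 ± 9.52 CPM in PAM II livers and 10.2 ± 7.37 CPM in aged controls (SD, n = 4 each), a log2 fold change of 0.12 ± 0.52 with an interval of -0.97 to 1.22 and an edgeR adjusted p of 1.0. Its sign turned without PAM II replicate 1, to -0.68, and it was 0.75 without aged control replicate 3. The other 9 members had values from -0.26 for Cldn1 to 0.17 for Cldn2, and every edgeR adjusted p was 1.0. By edgeR, limma voom and DESeq2, 0 of 10 were called, beside 0% of all genes in edgeR, and 0 of 10 had an unadjusted edgeR p under 0.05, beside 2.73% of all genes. No member was without overlap, beside 2.1% of all genes.

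PAM II against PAM I shares no library with the contrast that led to the choice. Cdh1 gave 0.57 ± 0.52 (interval -0.54 to 1.68, edgeR adjusted p = 0.881), and without PAM II replicate 1 it was -0.22. Ocln gave 0.38 ± 0.17 (unadjusted p = 0.0405, edgeR adjusted p = 0.880) and Tjp1 0.55 ± 0.27 (edgeR adjusted p = 0.880). Cldn3 was the 1 member without overlap, 136 ± 4.81 CPM in PAM II and 159 ± 12.2 CPM in PAM I livers, with -0.22 ± 0.13 and an edgeR adjusted p of 0.880. Over all genes 4.66% were without overlap. None of the 10 was called by edgeR, limma voom or DESeq2, beside 0% of all genes in edgeR, and 1 of 10 had an unadjusted edgeR p under 0.05, beside 4.56%.

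**Figure D4:**
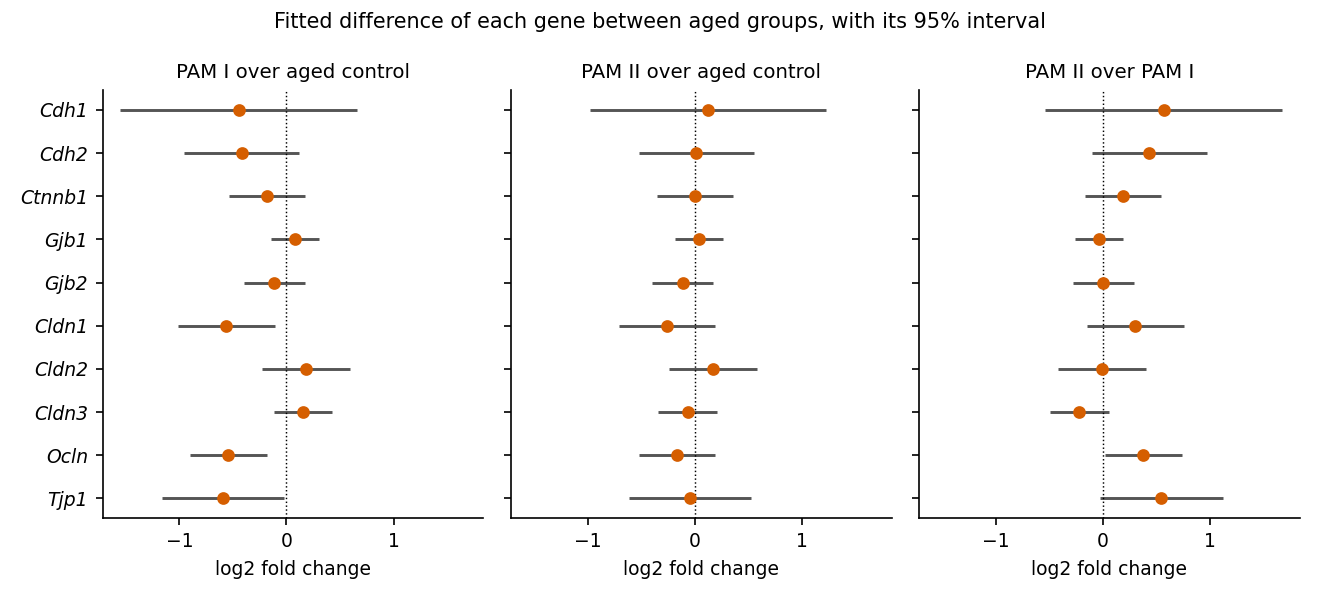
Fitted log2 fold change of each member (points) with its 95% interval (lines) in the 3 comparisons of aged groups. Intervals of Cldn1, Ocln and Tjp1 lie below 0 for PAM I over aged control, before adjustment over all genes, and the Cdh1 intervals are the widest.

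Other genes of the same structures were taken from lists. The lists held 19 measured adherens junction genes, 26 tight junction genes and 7 gap junction genes. In each of the 3 comparisons of aged groups edgeR called 0 of these, beside 0% of all genes. Between PAM I and aged controls the tight junction list had 21 negative and 5 positive values, with a median log2 fold change of -0.22 beside 0.02 over all genes. In the same comparison the long-transcript balance of all 4 PAM I libraries was below that of 3 of the 4 aged controls, Kupffer markers had 10 of 11 positive values (median 0.74) and skeletal muscle markers 14 of 14 (median 2.54), with 0 called. Their part in the list's values was not tested. Its smallest p-values were those of Magi1, a scaffold of tight junctions, at -0.38 ± 0.13 (unadjusted p = 0.00803), and Amot, angiomotin, at -0.66 ± 0.24 (unadjusted p = 0.0133), both with an edgeR adjusted p of 0.506. In the adherens junction list Afdn, the afadin gene that links nectins to actin, had -0.53 ± 0.16 (unadjusted p = 0.00375, edgeR adjusted p = 0.506). Afdn had 48.6, 44.9, 38.1 and 31.8 CPM in the PAM I livers, against 63.1, 61.9, 66.3 and 44.3 in the aged control livers, and the groups overlapped through aged control replicate 4.

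The 11 measured desmosome and keratin genes had 9 negative values for PAM I against aged controls, with a median of -0.21 beside 0.02 over all genes. Krt8, a keratin of hepatocytes, went the other way at 0.35 ± 0.14 (edgeR adjusted p = 0.506). The part of the long-transcript balance given above in this list's values was not tested. Among 15 regulators of cadherin transcription, Zeb1, a repressor of Cdh1 in cultured epithelial cells, had -0.37 ± 0.15 (edgeR adjusted p = 0.506). Between PAM II and PAM I livers the smallest p-value in that list was that of Snai2, a Snail-family repressor, at 0.77 ± 0.26 (unadjusted p = 0.00901, edgeR adjusted p = 0.880). None of these passed the test.

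Between aged control and young livers, where edgeR called 3.23% of all genes, the same lists held few calls. None of 19 adherens, 26 tight and 7 gap junction genes was called, with medians of 0.00, -0.05 and -0.11. The smallest p-value among these was that of Nectin2, a nectin of adherens junctions, at -0.36 ± 0.11 (edgeR adjusted p = 0.0724). Among 11 desmosome and keratin genes 1 rose, Pkp3, the plakophilin 3 gene. Pkp3 had 3.71, 2.65, 1.84 and 3.36 CPM in the aged control livers, against 1.89, 0.674, 1.02 and 1.15 in the young livers, overlapping through aged control replicate 3 and young replicate 1, with 1.29 ± 0.30 and an edgeR adjusted p of 0.0298. Its call was lost without aged control replicate 1 or 4 or young replicate 2, 3 or 4, at adjusted p-values up to 0.087, in a fit of the 2 groups alone (0.119) and with the muscle covariate (0.0781).

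Among 15 regulators 1 was called, Tcf4, an E-box binding factor, which was higher in aged controls. The list had 8 positive and 7 negative values. Without overlap, 3 regulators were higher and 1 lower in aged controls, beside 9.27% of all genes in either direction. Tcf4 had 27.6, 29.4, 25.7 and 33.1 CPM in the aged control livers, against 22.6, 20.1, 21.3 and 17.9 in the young livers, with 0.50 ± 0.12 and an edgeR adjusted p of 0.0294, and all aged controls lay above all young livers. The call was lost without aged control replicate 2 or 4 or young replicate 4, at adjusted p-values up to 0.105, in the 2 groups alone (0.0861) and without both aged control replicate 4 and young replicate 1 (0.0878). None of 14 genes of cadherin processing and traffic was called.

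Of 20 listed genes of pericentral hepatocytes 3 were called lower, beside 3.23% of all genes called in either direction. The list had 9 positive and 11 negative values, with a median log2 fold change of -0.10 beside -0.01 over all genes. Notum, a Wnt-inhibiting enzyme induced by Wnt signals, had -0.77 ± 0.17 (edgeR adjusted p = 0.0222). Cyp27a1, a sterol hydroxylase of bile acid synthesis, had -0.71 ± 0.18 (edgeR adjusted p = 0.0404), and Cyp1a2, a drug-metabolising cytochrome, -1.18 ± 0.30 (edgeR adjusted p = 0.0447). Notum was lost in 4 of 8 fits leaving out 1 library, namely aged control replicate 2 or 4 or young replicate 1 or 4. Cyp27a1 kept its call in 1 of 8 such fits, without young replicate 3, and so did Cyp1a2. All 3 calls were also lost in the 2 groups alone (adjusted p = 0.116 for Notum, 0.0969 for Cyp27a1 and 0.0512 for Cyp1a2, edgeR), with the muscle covariate (0.0789, 0.108 and 0.114, in that order of genes) and without both aged control replicate 4 and young replicate 1 (0.142, 0.242 and 0.225). With no filter Cyp27a1 (0.0513) and Cyp1a2 (0.0678) were lost, Cyp1a2 also with the Kupffer covariate (0.0502), and Cyp27a1 also by limma voom (0.0506) and without aged control replicate 3 and PAM II replicate 1 (0.0659).

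Several members varied together among aged livers. Deviations of log2 CPM from the group mean were correlated over 12 aged libraries for all 45 pairs, with exact permutation within groups (13824 arrangements, two-sided) and Benjamini-Hochberg adjustment over the pairs. Adjusted p was under 0.05 for 7 pairs, all positive. How often pairs of other genes pass was not computed, so the count is not read as particular to these members. Cdh2 and Ctnnb1 were closest, with Pearson r = 0.955 (exact permutation p = 7.23e-05, the smallest these arrangements can give, adjusted 0.00325), Spearman rho = 0.944 (exact permutation p = 7.23e-05) and r = 0.855 without the 2 libraries farthest from the median. Cdh2, Ctnnb1, Cldn1 and Tjp1 formed 6 of the 7 pairs, with r between 0.852 and 0.955. Gjb2 and Cldn2 formed the other, with r = 0.858 (exact permutation p = 0.00188, adjusted 0.0211), rho = 0.832 (exact permutation p = 0.00137) and r = 0.579 without the 2 farthest libraries. None of the 9 pairs with Cdh1 passed, the lowest adjusted p being 0.345 by exact permutation.

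A library-wide measure moved with these levels. For each library the median log2 deviation of 4892 genes with over 5000 exon bases was taken minus that of 1766 genes under 2000 bases. This long-transcript index was -0.04, -0.09, -0.29 and -0.42 in PAM I livers, -0.16, 0.10, 0.12 and 0.15 in PAM II livers, 0.09, 0.19, 0.32 and -0.14 in aged controls, and -0.20, 0.16, 0.22 and -0.02 in young livers. All PAM I values lay below 0.

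Over the 12 aged libraries, as deviations from group means, Tjp1 followed the index with r = 0.984 (exact permutation p = 0.000217, adjusted 0.00121 over 10 members), rho = 0.958 (exact permutation p = 0.000217) and r = 0.968 without the 2 farthest libraries. Cldn1 (r = 0.898), Cdh2 (r = 0.867) and Ctnnb1 (r = 0.852) did so too, with adjusted exact permutation p-values of 0.00235, 0.00121 and 0.00121. Tjp1 (7811 exon bases), Cdh2 (8066) and Ctnnb1 (5192) are themselves among the long genes of the index, and Cldn1 has 4841 exon bases. The share of all genes that follow the index was not computed, so these p-values are not read as particular to the members. Ocln had r = 0.716 (adjusted exact permutation p = 0.0438), but rho = 0.587 had an adjusted p of 0.143 by exact permutation and r was 0.433 without the 2 farthest libraries. For Cdh1 r was -0.03 (exact permutation p = 0.942), with rho = 0.119 (exact permutation p = 0.729).

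With the index as a covariate in the fit, an alternative chosen after seeing the data, the PAM I minus aged control values were 0.17 for Tjp1 and 0.04 for Cldn1, of opposite sign to those without it, and -0.23 for Ocln. The aged control minus young value of Cdh1 was -3.16 with it.

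**Figure D5:**
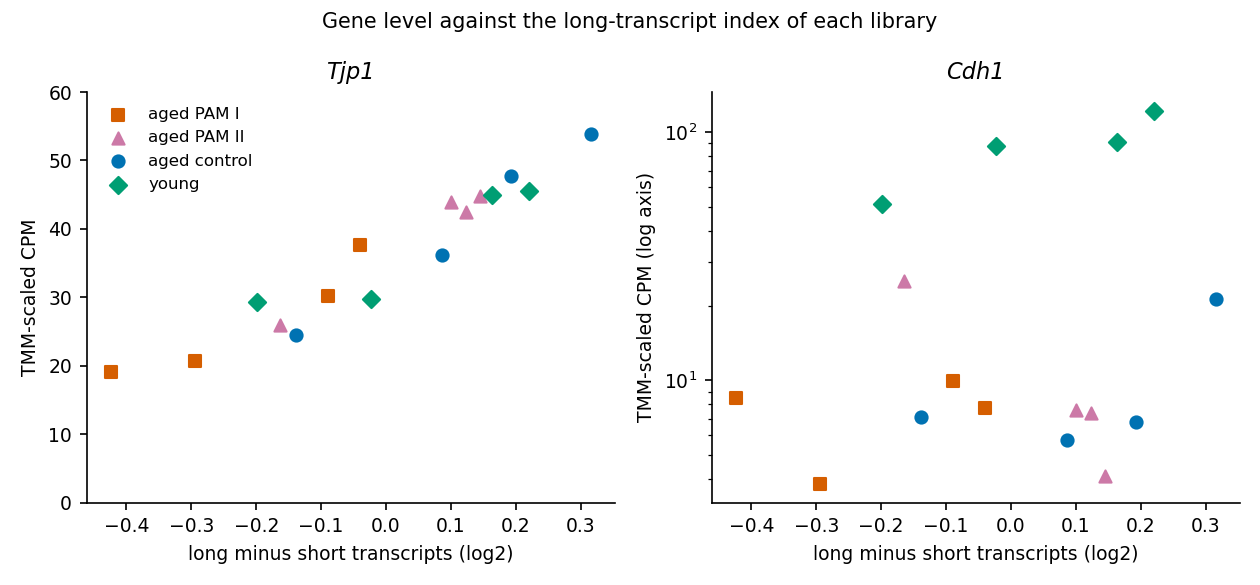
TMM-scaled CPM of Tjp1 (linear axis) and Cdh1 (log axis) against the long-transcript index of each library in log2 units, with 1 point per library and symbols for the 4 groups. Tjp1 tends to be higher at a higher index, and Cdh1 of all young livers lies above that of all aged livers. The young livers span an index of -0.20 to 0.22, a narrower range than the aged livers.

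Genes most like Cdh1 were ranked by Pearson r of log2 CPM among 10740 genes, as a description. Over all 16 libraries Sel1l3 (r = 0.919), Itih5 (0.901), Gcnt4 (0.898), Cd276 (0.883) and Sort1 (0.882) led. Young and aged livers are separate clusters of Cdh1, so r over all libraries describes the distance between them. Sort1, a sorting receptor of lipoprotein traffic, averaged 15.2 CPM in PAM I, 15 in PAM II, 16.3 in aged control and 38.0 CPM in young livers. Gcnt4, a glycosyltransferase, averaged 3.26 CPM in PAM I, 3.89 in PAM II, 3.92 in aged control and 8.65 CPM in young livers.

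Over deviations of the 12 aged libraries from their group means, B3glct (r = 0.951), Ctsl (0.949), Szrd1 (0.926), Dhrs13 (0.915) and Gpat3 (0.914) led instead. None of these was among the leading 5 over all libraries. Ctsl, the lysosomal protease cathepsin L, averaged 485 CPM in PAM I, 512 in PAM II, 486 in aged control and 432 CPM in young livers.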

How the data were processed

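Liver total RNA was sequenced as paired reads of 100 bases, 16 libraries in 4 groups of 4. Per the submitters' processing notes, reads were trimmed with Trimmomatic 0.38 and aligned to mm10 with HISAT2 2.1.0. Per the file headers, the deposited values are raw counts of fragments per gene from featureCounts 1.5.0-p2, stranded, with exons summed by the Ensembl release 99 annotation of GRCm38. Symbols came from GENCODE M21, for 55144 of 55471 identifiers.

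Groups follow the title, age and group labels, since the free-text description calls the young samples aged. The tests used edgeR 4.0.16 under R 4.3.3 (filterByExpr, TMM, robust quasi-likelihood F test, 1 fit of 16 libraries with a mean per group), tested on simulated data. DESeq2 1.42.0, limma 3.58.1 voom, other scalings, filters and covariates, and fits leaving out libraries were alternatives. Depth lay between 36968993 and 52090914 fragments, of which Ocln, a low member, had 481 to 998 per library. Cdh1 had 184 to 463 per library in PAM I, 176 to 1463 in PAM II, 285 to 969 in aged control and 1678 to 5025 in young livers.

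Members and lists were chosen with earlier results of these data known. The genes named are all 10 members, up to 4 per list by the smallest p in a contrast, and the 5 most like Cdh1 in each ranking. List symbols Hakai and Tf had no match.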

Additional observations from a re-analysis of the deposited data

Results flagged for a closer look

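Of 40 groups of 4 libraries (10 members in 4 groups), 5 held a library far from the other 3 by Dixon's test, where chance flags about 5% of groups. The members share the same libraries, so the flags are not independent and nothing is read from their count. Cdh1 had 25.15 CPM in PAM II replicate 1, above the 4.127 to 7.621 CPM of the other PAM II livers, and 21.24 CPM in aged control replicate 3, above the 5.749 to 7.104 CPM of the other aged controls. Tjp1 had 25.9 CPM in PAM II replicate 1, below the 42.54 to 44.74 CPM of the rest of its group. In young replicate 1, Ctnnb1 was low, at 109.7 CPM where the other young livers had 171.2 to 182.1 CPM, and Cldn3 was high, at 207.3 CPM where they had 138.3 to 146.9 CPM.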

How the results depend on the processing

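No paired analysis was possible because the labels number no replicates within groups: the numbers 1 to 4 used here follow the order of deposit, only name libraries and pair none. Beside 551 genes called between aged control and young livers, DESeq2 called 1343, the long-transcript covariate 1029, the muscle marker covariate 311, a fit of the 2 groups alone 198, and a fit without aged control replicate 4 and young replicate 1, 155. Leaving out 1 library gave 199 to 573, and 0 to 0 in each comparison of aged groups, where DESeq2 called 16 for PAM I against aged controls. The fits without pairs of libraries and with the long-transcript covariate were chosen after seeing the data. The causes of the changes below were not tested.

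Values below are log2 fold changes whose sign turned in the 3 comparisons of aged groups. For aged control minus young, turned signs are given only for the fits leaving out 1 library. For PAM I minus aged control, the long-transcript covariate gave 0.29 for Cdh2, 0.036 for Cldn1, -0.041 for Cldn3, 0.22 for Ctnnb1, 0.12 for Gjb2 and 0.17 for Tjp1. Without aged control replicate 3 and PAM II replicate 1, the pair of aged livers highest in Cdh1, Cdh1 was 0.18 and Gjb2 0.0024, and without aged control replicate 4 and young replicate 1 Gjb1 was -0.0017. For PAM II minus aged control, the first of these pairs left out gave -0.040 for Cdh1, 0.020 for Cldn1, 0.044 for Gjb2 and 0.27 for Tjp1. The other pair left out gave -0.022 for Cdh1, -0.20 for Cdh2, -0.13 for Ctnnb1 and -0.028 for Gjb1. Limma voom gave -0.29 for Cdh1, -0.0010 for Cdh2, -0.051 for Ctnnb1 and 0.033 for Cldn3. Tjp1 was 0.22 with the Kupffer covariate and 0.13 with the long-transcript covariate, Cdh2 was -0.0010 with the muscle covariate, and Ctnnb1 was -0.0034 in the 2 groups alone. For PAM II minus PAM I, the long-transcript covariate gave -0.083 for Cdh2, -0.15 for Cldn1, -0.12 for Ctnnb1, -0.18 for Gjb2 and -0.0445 for Tjp1. Without aged control replicate 3 and PAM II replicate 1, Cdh1 was -0.22, Cldn2 0.0096 and Gjb1 0.019. Limma voom gave -0.16 for Cdh1, 0.026 for Cldn2 and 0.0295 for Gjb1. Cldn2 was 0.019 with the muscle covariate and 0.0009 without aged control replicate 4 and young replicate 1, and Gjb2 was -0.031 with upper-quartile scaling.

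Leaving out 1 library put Cdh1 between -0.66 and 0.18 for PAM I minus aged control, -0.68 and 0.75 for PAM II minus aged control, -0.22 and 0.85 for PAM II minus PAM I, and -3.75 and -2.91 for aged control minus young. Signs also turned for Gjb1 (-0.0020 to 0.10) and Gjb2 (-0.24 to 0.0025) in PAM I minus aged control. In PAM II minus aged control they turned for Cdh2 (-0.20 to 0.28), Ctnnb1 (-0.13 to 0.10), Gjb1 (-0.028 to 0.078), Gjb2 (-0.22 to 0.019) and Tjp1 (-0.23 to 0.11). In PAM II minus PAM I they turned for Gjb1 (-0.068 to 0.033), Gjb2 (-0.024 to 0.0495) and Cldn2 (-0.049 to 0.059). In aged control minus young they turned for Cdh2 (-0.16 to 0.31), Ctnnb1 (-0.14 to 0.14) and Tjp1 (-0.0445 to 0.30). No member was called between aged groups under any of these alternatives.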
